A study of Mus musculus with 12 samples.

Results

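Metallothioneins are small, cysteine-rich proteins that bind zinc and copper, and MTF1 is the zinc-finger transcription factor that senses free zinc and switches their genes on. The genes examined were Mt1, Mt2, Mt3 and Mtf1, taken by symbol from the mouse annotation, 4 of the 54331 genes in the deposited gene table, and all 4 passed the filter on low counts. Mt1 and Mt2 are expressed in many tissues and are known to respond to metals, to glucocorticoids and to inflammatory cytokines. Mt3 is enriched in brain, and Mt4 is best known from squamous epithelium. In the brain, MT1 and MT2 are best known from astrocytes and from the cells of blood vessels.

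The RNA came from cerebral vessels of the forebrain of wild type C57BL/6 mice aged 2 to 3 months. Mice received LPS, the endotoxin of Gram-negative bacteria, at 10 mg/kg into the peritoneum and were killed 15 min, 30 min or 4 h later, and the control mice received PBS. Each of the 4 groups had 3 libraries, and each library pooled the vessels of 1 male and 1 female mouse, so that a single mouse is not resolved. The vessels were obtained after perfusion and removal of the meninges, by homogenisation, a dextran gradient and a mesh, and neither the time of day nor the interval between PBS and death was stated. Depth was 18.3 to 25.9 M fragments per library. All 8 endothelial and all 8 mural markers were detected, with summed levels of 9254 to 9548 and 4866 to 4961 CPM in PBS (CPM are fragments scaled to the library total, here with TMM factors). Markers of choroid plexus (10327 to 10757 CPM in PBS, mostly Ttr) and astrocytes (834 to 861 CPM) were present too.

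Mt1 (ENSMUSG00000031765) spans bases 94179082 to 94180327 of chromosome 8 on GRCm38, and Mt2 (ENSMUSG00000031762) spans bases 94172664 to 94173568. The end of Mt2 lies 5514 bases before the start of Mt1. Mt3 (ENSMUSG00000031760) spans bases 94152607 to 94154146, and its end lies 18518 bases before the start of Mt2. Mt4 lies 13576 bases further upstream, and all 4 metallothionein genes are on the plus strand. Mtf1 is on chromosome 4.

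The 250 bases before the RefSeq start of Mt1, Mt2 and Mt3 (GRCm38.p6, plus strand), which can differ by some bases from the start given above, are shown because Mt1 and Mt2 rose together and because MTF1 binds metal response elements in such regions. They lie at chr8:94178839-94179088 for Mt1, chr8:94172368-94172617 for Mt2 and chr8:94152357-94152606 for Mt3. Capitals mark the letters TGCGCNC or TGCACNC, the core of the metal response element, found on either strand.
Mt1: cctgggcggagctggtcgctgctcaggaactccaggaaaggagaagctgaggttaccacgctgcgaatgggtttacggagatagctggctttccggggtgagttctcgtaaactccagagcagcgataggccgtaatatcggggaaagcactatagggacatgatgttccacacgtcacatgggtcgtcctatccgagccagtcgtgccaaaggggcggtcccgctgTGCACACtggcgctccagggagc
Mt2: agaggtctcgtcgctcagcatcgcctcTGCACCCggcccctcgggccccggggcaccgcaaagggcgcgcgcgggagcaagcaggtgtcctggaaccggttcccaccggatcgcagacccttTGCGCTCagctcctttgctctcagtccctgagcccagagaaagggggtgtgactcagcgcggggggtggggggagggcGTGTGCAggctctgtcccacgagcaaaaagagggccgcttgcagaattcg
Mt3: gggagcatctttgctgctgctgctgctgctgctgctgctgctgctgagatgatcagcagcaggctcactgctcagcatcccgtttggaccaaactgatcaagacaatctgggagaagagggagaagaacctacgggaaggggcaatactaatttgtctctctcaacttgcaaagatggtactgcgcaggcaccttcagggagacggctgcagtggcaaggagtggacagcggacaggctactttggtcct
Over windows that also held the first 50 bases after the start, Mt2 had 4 matches, Mt1 had 3 and Mt3 had 1, while Mtf1 had none and Mt4 had 1. Of the 4 in Mt2, 3 lay before the RefSeq start and are shown above, 223, 128 and 50 bases before it, and the other began 4 bases after it. The annotated start of Mt2 given above, base 94172664, lies downstream of the RefSeq start. The count and positions for Mt2 thus hold for the RefSeq start only. In Mt1 the match shown lay 23 bases before the RefSeq start, and the others began 2 and 20 bases after it. Other annotated transcripts of Mt1 begin further downstream, at bases 94179211 and 94179241. The count and positions for Mt1 therefore hold for the RefSeq start only. Windows at the later starts were not searched, and which start was used in these vessels was not tested. At least 1 match was present in 25.7% of the 32851 windows of the same length, at least 3 in 1.97% and at least 4 in 0.518%. The glucocorticoid palindrome GNACANNNTGTNC, which overlaps neither form, occurred once in the Mt1 window and in 0.475% of all windows. The STAT letters TTCNNNGAA and the E-box CACGTG were in none of the 4 windows of the genes examined, and in 8.30% and 7.15% of all. The NF-κB letters GGGNNNNNCC occurred 2 times for Mt1 and 1 time for Mtf1, with 50.8% of all windows holding them, and the antioxidant response letters TGACNNNGC occurred 1 time for Mt2, with 12.4%. All motifs were searched on both strands. A match describes letters and is not a binding site.

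Mt1 and Mt2 rose after LPS, by several fold at 30 min and by far more at 4 h. Mt1 was at 94.9, 97.4 and 85.3 CPM in the 3 PBS libraries. It was at 101, 103 and 103 CPM at 15 min, at 274, 271 and 284 CPM at 30 min, and at 4273, 3996 and 4134 CPM at 4 h. No group overlapped another, although the step from PBS to 15 min was small. Against PBS, Mt1 changed on the log2 scale by 1.58 (SE 0.036, adjusted p = 2.26e-17) at 30 min and 5.48 (SE 0.040, adjusted p = 3.96e-30) at 4 h, in edgeR's quasi-likelihood test for a change beyond 1.5-fold with Benjamini-Hochberg adjustment over 19150 genes. That is 2.99-fold and 44.7-fold. At 15 min the log2 fold change was 0.15 (SE 0.037, adjusted p = 1).

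Mt2 rose further than Mt1. It was at 64.7, 62.3 and 63.2 CPM in PBS, at 84.5, 86.4 and 75.2 CPM at 15 min, at 303, 313 and 313 CPM at 30 min, and at 8322, 8151 and 7949 CPM at 4 h. All 4 groups were apart. The log2 fold change was 2.29 (SE 0.035, adjusted p = 5.07e-22) at 30 min and 7.0 (SE 0.040, adjusted p = 5.23e-32) at 4 h, which is 4.88-fold and 128-fold. At 15 min it was 0.37 (SE 0.036, adjusted p = 1), below the 1.5-fold limit, and the test with no fold limit gave an adjusted p of 2.05e-08. Because these were bulk samples, more cells of a type and more RNA per cell cannot be told apart.

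**Figure D1:**
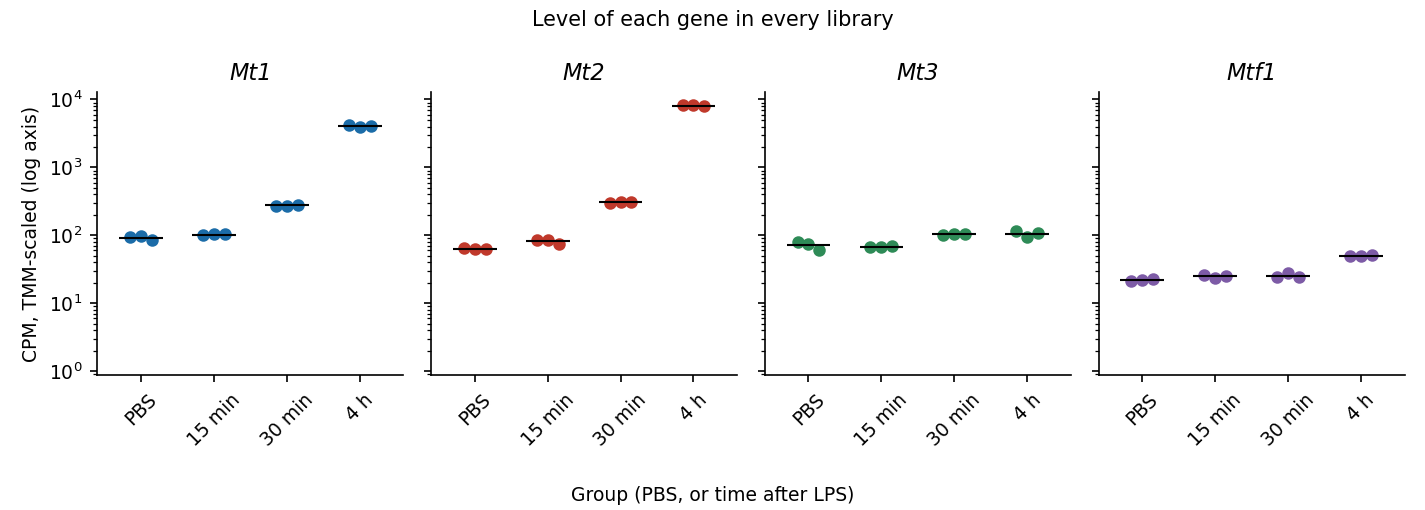
Level of Mt1, Mt2, Mt3 and Mtf1 in CPM (log axis) in the 3 libraries of each group, with points for libraries and lines for group means. Mt1 and Mt2 rise at 30 min and 4 h, to 4134 and 8141 CPM on average at 4 h, while Mt3 and Mtf1 reach 106 and 50.4 CPM.

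Mt3, the brain-enriched metallothionein, did not pass the test for a change beyond 1.5-fold at any time. It was at 79.9, 75.4 and 61.3 CPM in PBS and at 68.1, 68.5 and 69.2 CPM at 15 min, where the groups overlapped. It was at 103, 105 and 107 CPM at 30 min and at 115, 95.0 and 107 CPM at 4 h, above every PBS library. The log2 fold change against PBS was 0.54 (SE 0.067, adjusted p = 1) at 30 min and 0.55 (SE 0.070, adjusted p = 0.800) at 4 h. With no fold limit the adjusted p was 1.06e-06 and 3.48e-07. With scaling by library size alone, which moved the median of all genes at 4 h to −0.71, the 4 h value of Mt3 was −0.16.

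Mtf1, which encodes the zinc sensor, passed the test at 4 h and not at 15 or 30 min. It was at 21.4, 21.8 and 22.9 CPM in PBS, at 26, 24 and 25.3 CPM at 15 min, and at 24, 28.3 and 24.2 CPM at 30 min. At 4 h it was at 50.3, 50.1 and 51.0 CPM, above all the other libraries. The log2 fold change at 4 h was 1.2 (SE 0.066, adjusted p = 2.79e-09), or 2.29-fold. At 15 and 30 min it was 0.19 (SE 0.066) and 0.21 (SE 0.067), with adjusted p = 1 for both. With library size alone the 4 h value fell to 0.49 and the call was lost (adjusted p = 0.904).

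Of the 4 genes, 0 passed the test at 15 min, where 4.18% of all genes tested passed, while 3 passed with no fold limit, as did 38.6% of all genes. At 30 min 2 passed, against 4.58% of all genes, and 4 with no fold limit, against 36.9%. At 4 h 3 passed, against 32.8%, and 4 with no fold limit, against 68.5%. All that passed were higher, as were 3.78% of all genes at 30 min and 19% at 4 h. The LPS libraries lay above every PBS library for 3 of the 4 genes at 15 min, against 25.2% of all genes, for 4 at 30 min, against 23.7%, and for 4 at 4 h, against 35.9%. The 3 comparisons share the PBS libraries. Between 15 and 30 min, where 4.65% of genes passed and 2.69% were higher, 2 of the 4 rose: Mt1 by 1.43 (SE 0.036, adjusted p = 7.23e-16) and Mt2 by 1.92 (SE 0.034, adjusted p = 7.83e-20) on the log2 scale. Mt3 differed by 0.61 (adjusted p = 1) and Mtf1 by 0.02 (adjusted p = 1). Between 30 min and 4 h, where 28.6% passed and 16.9% were higher, Mt1 rose by 3.90, Mt2 by 4.72 and Mtf1 by 0.98 (adjusted p = 2.52e-06 for Mtf1), and Mt3 differed by 0.01. Scaled by library size alone, Mtf1 was at 0.44 there and did not pass (adjusted p = 1).

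**Figure D2:**
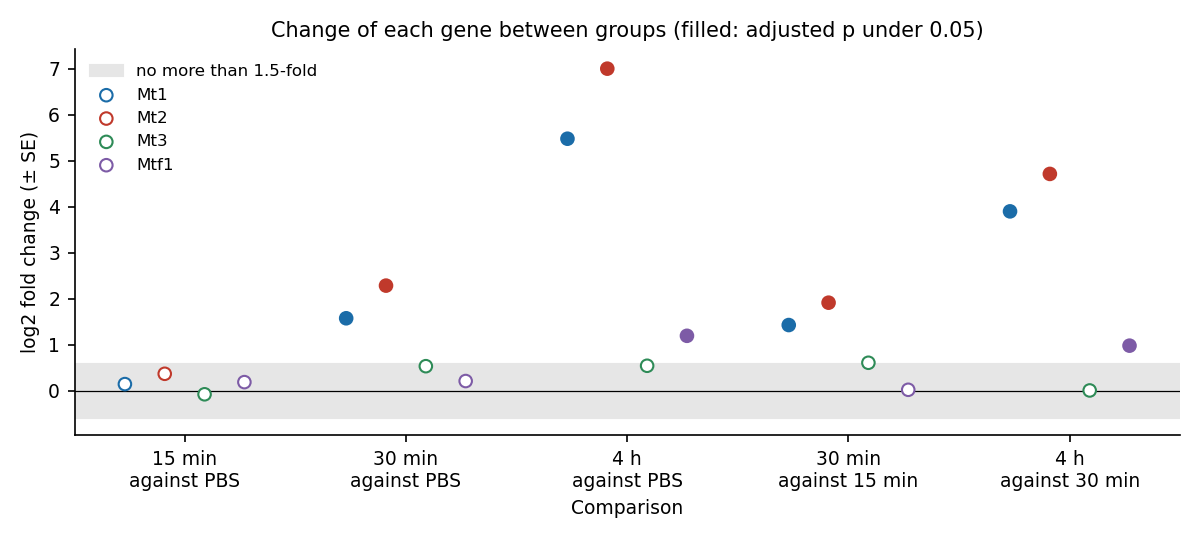
Log2 fold change of the 4 genes in 5 comparisons, with SE bars that are smaller than most symbols and a grey band for changes of no more than 1.5-fold. Filled symbols passed the test: Mt1 and Mt2 in 4 comparisons, Mtf1 in both that involve 4 h, and Mt3 in none.

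The order of the metallothioneins was compared per length, in TPM, the abundance scaled for transcript length. In PBS, Mt1 led with 485, 496 and 462 TPM. Mt3 had 453, 423 and 370 TPM, and Mt2 had 385, 369 and 409 TPM, so Mt2 and Mt3 overlapped. At 15 min Mt1 (507 to 526 TPM) and Mt2 (461 to 519 TPM) overlapped. At 30 min Mt2 (1538 to 1607 TPM) stood above Mt1 (1072 to 1125 TPM), and Mt3 was lowest (491 to 507 TPM). At 4 h Mt2 had 28077, 28202 and 27255 TPM, Mt1 had 11920, 11225 and 11622 TPM, and Mt3 had 369, 312 and 345 TPM. Mtf1 was far below all of them, with 7.26 to 9.96 TPM in PBS and 10.4 to 12.5 TPM at 4 h. Among all genes ordered by TPM, Mt2 moved from places 261 to 299 in PBS to place 3 in all 3 libraries at 4 h, and Mt1 from places 210 to 221 to place 13.

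Mt1 and Mt2 together took 0.0174% to 0.0187% of the fragments of a PBS library. Their share was 0.0205% to 0.0217% at 15 min, 0.0600% to 0.0622% at 30 min and 0.866% to 0.90% at 4 h. Within the TPM of Mt1, Mt2 and Mt3, the part of Mt3 was 29.8% to 34.2% in PBS and 0.785% to 0.915% at 4 h. The part of Mt2 went from 28.6% to 33.0% in PBS to 69.5% to 71.0% at 4 h. The TPM of Mt3 itself was lower on average at 4 h than in PBS, while its CPM with TMM factors was higher. The ranges nearly met, with 312 to 369.1 TPM at 4 h and 369.6 to 453 TPM in PBS. TPM have an equal total in each library, and with scaling by library size alone the median of all genes at 4 h was −0.71.

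The ratio of Mt2 to Mt1 fragments, which does not depend on the scaling between libraries, was higher at 30 min and 4 h than before. Its log2 was −0.55, −0.64 and −0.43 in PBS, and −0.26, −0.26 and −0.46 at 15 min. It was 0.14, 0.21 and 0.14 at 30 min and 0.96, 1.03 and 0.94 at 4 h. PBS and 15 min overlapped, and both later groups were above them and apart from each other. Over the 4 groups an exact permutation test gave p = 0.00013 (369600 divisions, where the smallest possible p was 6.49e-05). The mean exceeded that of PBS by 0.22 at 15 min (two-sided exact permutation p = 0.2), by 0.71 at 30 min and by 1.52 at 4 h (p = 0.1 for both, the smallest that 3 against 3 allows).

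**Figure D3:**
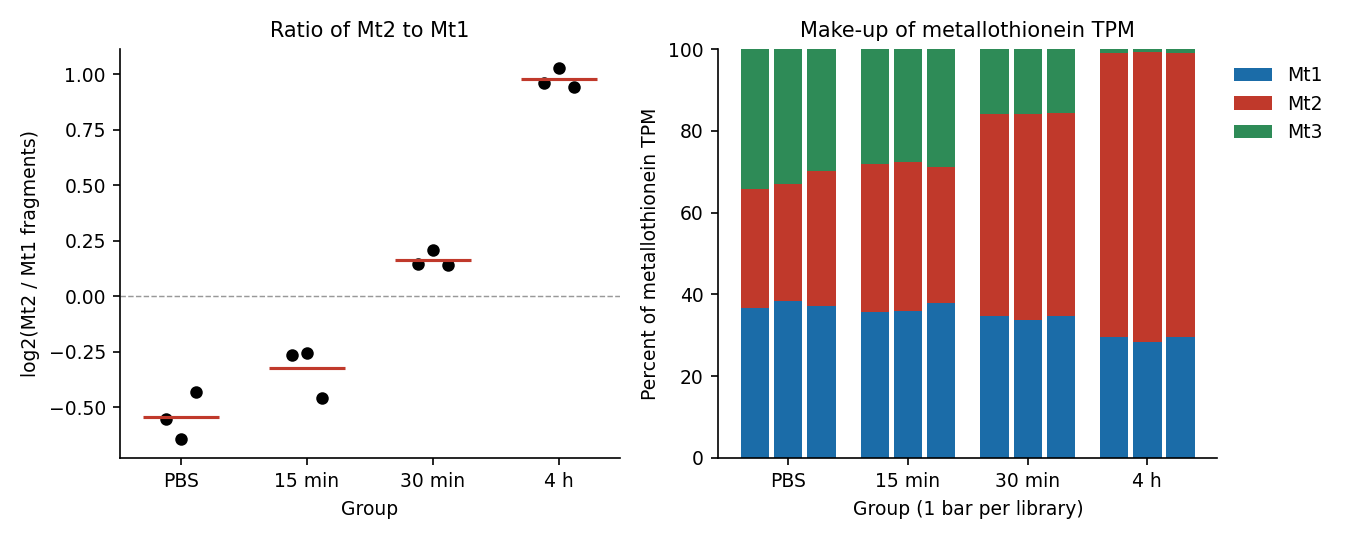
Left, log2 of the ratio of Mt2 to Mt1 fragments in each library (points) with group means (lines); right, the percent of metallothionein TPM from Mt1, Mt2 and Mt3, with 1 bar per library. The ratio crosses 0 between 15 and 30 min, and Mt3 takes 29.8% to 34.2% in PBS and under 1% at 4 h.

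The transcripts of Mt1 did not keep their proportions. The spliced transcript Mt1-201 (3 exons, 549 bases) held 95.0%, 95.2% and 95.7% of the Mt1 fragments in PBS. It held 88.4%, 89.0% and 91.2% at 15 min, 81.8%, 80.1% and 80.8% at 30 min, and 90.7%, 90.3% and 90.6% at 4 h. The complement was mainly Mt1-202, a single exon of 1085 bases of which 697 are intronic in Mt1-201. Its estimated share was 3.96%, 2.58% and 3.38% in PBS, and 7.86%, 7.98% and 8.10% at 15 min. It was 14%, 16.4% and 14.1% at 30 min and 6.95%, 7.32% and 7.21% at 4 h, so the groups did not overlap and the share was highest at 30 min. These shares are model estimates for overlapping transcripts and were not tested. Most Mtf1 fragments went to Mtf1-201, a transcript of 11 exons, in every library.

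Mt2 overlaps Gm45774, a gene annotated on the opposite strand at chr8:94170748-94173412. Its single exon covers 355 of the 511 exonic bases of Mt2 and all 394 of its intronic bases. The library kit does not mark strand, so fragments of the 2 genes in the shared bases cannot be told apart. Gm45774 was at 2.17, 2.77 and 2.79 CPM in PBS, 9.39, 7.56 and 7.51 CPM at 15 min, 45.2, 42.8 and 45.1 CPM at 30 min, and 337, 312 and 306 CPM at 4 h. It passed the test at all 3 times, with log2 fold changes of 1.67 (SE 0.119), 4.10 (SE 0.089) and 6.94 (SE 0.076) and adjusted p = 6.69e-08, 1.08e-19 and 7.53e-27. As a percentage of the Mt2 level in the same library it was 3.36% to 4.44% in PBS, 8.75% to 11.1% at 15 min, 13.7% to 14.9% at 30 min and 3.82% to 4.05% at 4 h, again highest at 30 min. Mt1 and Mt3 shared no run of 31 bases with any other annotated gene. Mtf1 shared 7.77% of its runs with 1110065P20Rik, which overlaps 721 of its 7631 exonic bases on the other strand and differed from PBS at 4 h by −0.49 on the log2 scale (SE 0.124, adjusted p = 0.905), opposite in sign to Mtf1.

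Most protein-coding genes around the cluster did not pass the test, and neither did most of all genes tested. The filter kept 11 other genes examined that lay at least in part within 250 kb of Mt1. At 4 h 32.8% of all genes tested passed and 19% were higher. Of the 11, 4 were higher and 0 lower at 4 h: Gm45774, Gm45804 (log2 fold change 1.94), Herpud1 (0.83) and 9330175E14Rik (2.68). Gm45774 overlaps Mt2, and their fragments in the shared bases cannot be told apart, so it may not be a separate rise. Gm45804 was near the floor, at 0.318 CPM in PBS and 1.23 CPM at 4 h on average (SE of the log2 fold change 0.50, adjusted p = 0.00884 in the test for a change beyond 1.5-fold). Among the 6 that encode proteins, Herpud1, a gene of the endoplasmic reticulum stress response, was the only one to pass, with 0.89 at 15 min, 1.16 at 30 min and 0.83 at 4 h. The other 5 (Gnao1, Nudt21, Ogfod1, Bbs2 and Nup93) lay between −0.34 and 0.35 at 4 h. The noncoding C78859 rose at 15 min only (1.45, adjusted p = 4.2e-11), with 0.22 and −0.02 at 30 min and 4 h. The noncoding 9330175E14Rik was lower at 30 min (−2.48, adjusted p = 0.000316) and higher at 4 h, and Gm15889 passed at no time. Mt4 had 1 fragment in 1 library at 15 min and in 1 at 4 h and was otherwise listed at 0.

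**Figure D4:**
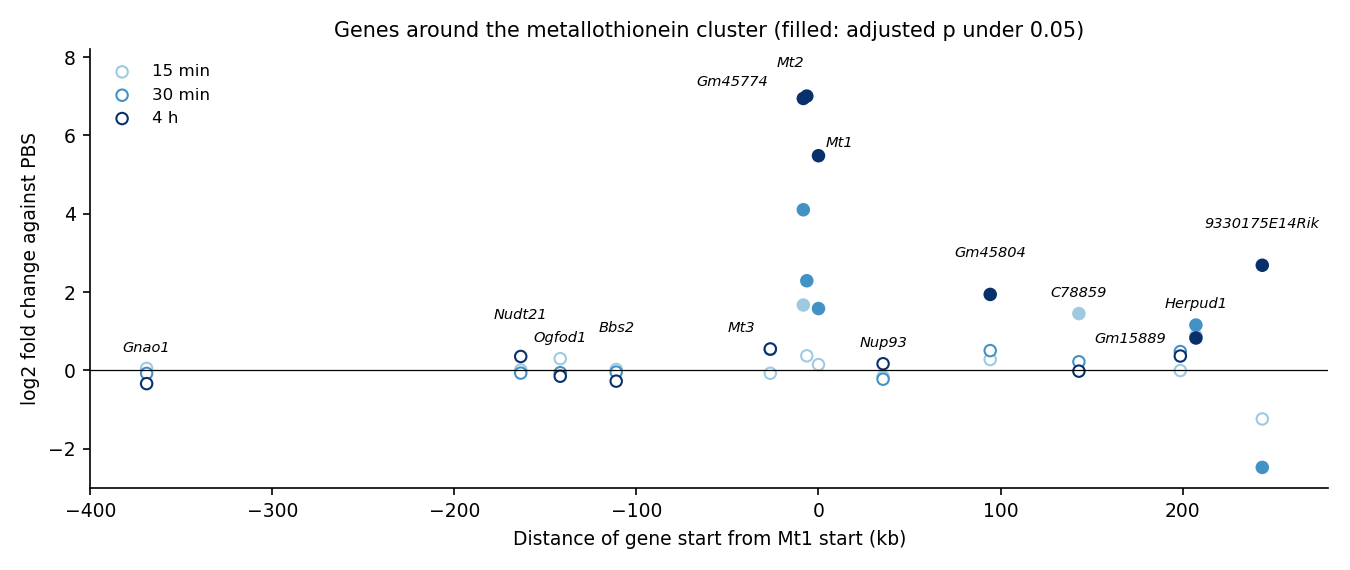
Log2 fold change against PBS of Mt1, its cluster and the genes examined around it that passed the filter, by the distance of each gene's start from that of Mt1 in kb, with 1 colour for each time and filled symbols for genes that passed the test. Mt1, Mt2 and Gm45774 stand at 5.48, 7.0 and 6.94 at 4 h, and the protein-coding neighbours at no more than 0.83. Gm45774 overlaps Mt2, and their fragments in the shared bases cannot be told apart.

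Of 9 zinc exporters of the ZnT family tested, 2 were higher and 0 lower at 4 h, when 32.8% of all genes passed, with a list median of 0.23 beside −0.01 for all genes. The 2 were Slc30a4 (40.4 CPM in PBS and 101 CPM at 4 h, log2 fold change 1.32, SE 0.052, adjusted p = 1.26e-12) and Slc30a7 (0.74, adjusted p = 0.00586), which load zinc into vesicles and the Golgi. Scaled by library size alone, they were at 0.62 (adjusted p = 0.168) and 0.04 (adjusted p = 1), and 0 exporters were higher and 1 was lower. Of all 19150 genes tested, 1907 were higher and 8555 lower under that scaling. Slc30a3, the zinc transporter of synaptic vesicles, passed at 15 min alone (1.21, adjusted p = 1.07e-08), where the summed level of 8 neuron markers was 776 to 796 CPM against 487 to 507 CPM in PBS. Of these markers, 3 were called higher (Slc17a7, Camk2a and Syt1) and 0 lower, with a list median of 0.45. Tubb3 (−0.13) and Nefl (−0.11) were below 0. The part of neuronal RNA was not tested. At 30 min 0 exporters passed, while the test with no fold limit called 5, as it did 36.9% of all genes. Slc30a1, the plasma membrane exporter and a known MTF1 target, was named after its values were seen: it differed from PBS by 0.47, 0.53 and −0.06 on the log2 scale at the 3 times in turn, with adjusted p = 1 at each time. Its 4 h value was −0.76 with library size alone (adjusted p = 1.67e-06), the 1 exporter then called lower.

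Of 13 importers of the ZIP family tested, 2 were higher and 4 lower at 4 h, with a median of −0.08. Of all 19150 genes tested, 3636 were higher and 2637 lower. With library size alone 2 importers were higher and 7 lower, beside 1907 and 8555 of all genes. Slc39a14 (ZIP14), known to be induced by IL-6 in the liver, had the largest change: 19.2 CPM in PBS and 127 CPM at 4 h, or 2.73 on the log2 scale (SE 0.065, adjusted p = 2.24e-19). Slc39a1 rose by 1.46 (SE 0.036, adjusted p = 2.88e-17). Slc39a10, a plasma membrane importer known to be repressed by MTF1, fell by 1.37 (SE 0.029, adjusted p = 3.31e-18), from 313 to 121 CPM. At 15 min only Slc39a2 passed (1.46, adjusted p = 2.53e-07), and at 30 min 0 passed, against 7 with no fold limit. Of all genes, 4.18% and 4.58% passed at these times, and 36.9% at 30 min with no fold limit.

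Among 10 copper-handling genes, 0 passed at 15 or 30 min, against 4 and 5 with no fold limit, which 38.6% and 36.9% of all genes passed. At 4 h 3 were higher and 3 lower, beside 3636 and 2637 of all 19150 genes tested. With library size alone the 4 h counts were 1 and 6, beside 1907 and 8555 of all genes. The copper pump Atp7a rose by 1.80 (SE 0.076, adjusted p = 1.33e-13), the metalloreductase Steap2 by 1.22 (adjusted p = 6.76e-12) and the transporter Slc31a2 by 1.15 (adjusted p = 3.88e-08). The 3 that fell were Commd1 (−0.92), Atox1 (−0.77) and Ccs (−0.77), the latter pair being copper chaperones. Of 7 genes linked to MTF1, which include Slc30a1 and Slc39a10 from the lists above, 3 were higher and 2 lower at 4 h (0 and 4 with library size alone). The same counts over all genes stand beside these. The largest changes were in Selenoh (−2.06, SE 0.156, adjusted p = 2.91e-09), Slc39a10 and the LIM-domain gene Csrp1 (1.21, adjusted p = 3.2e-18). Ndrg1 was the only one of the 7 to pass at 30 min (0.75, adjusted p = 6.93e-07). With library size alone it lost that call, and Steap2 (0.52, adjusted p = 0.910), Slc31a2 (0.45, adjusted p = 1) and Csrp1 (0.50, adjusted p = 1) lost theirs at 4 h.

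**Figure D5:**
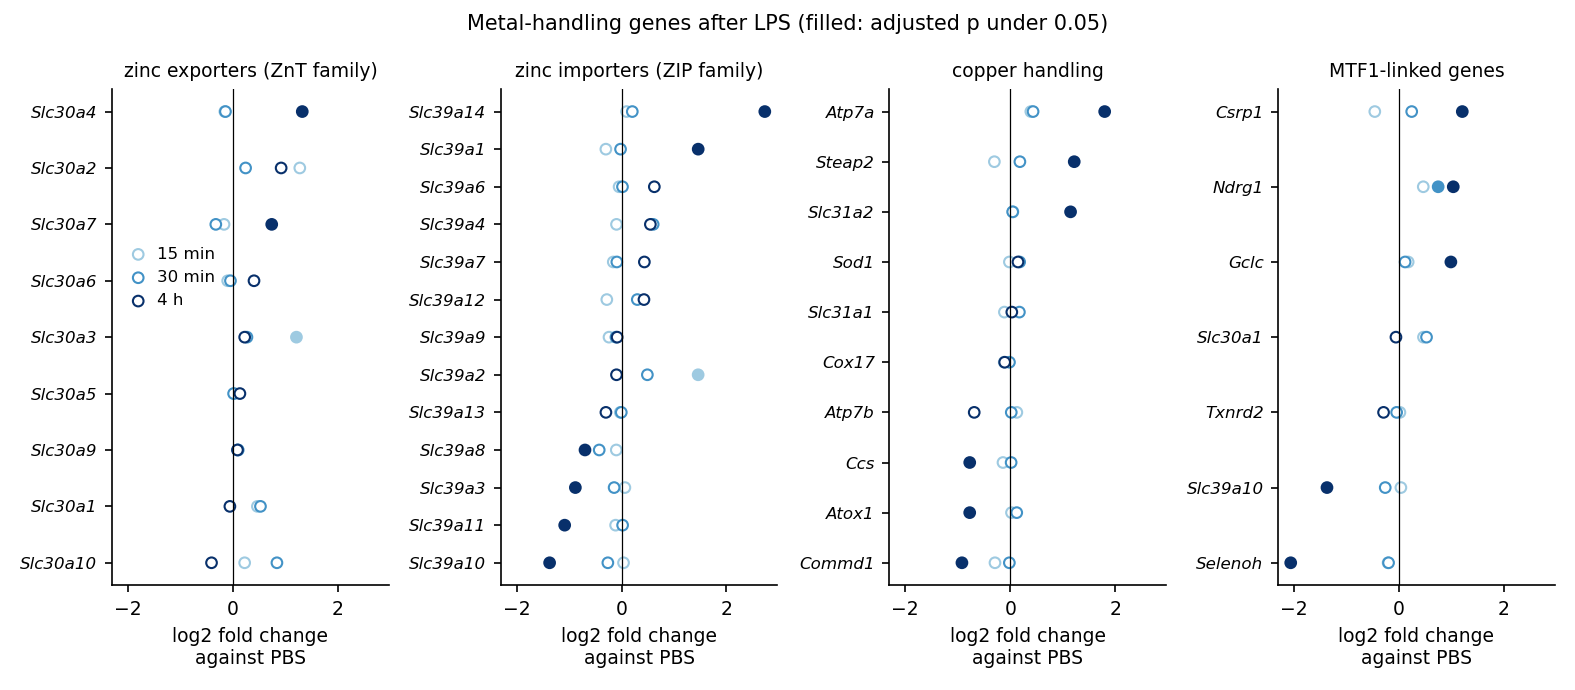
Log2 fold change against PBS of zinc exporters, zinc importers, copper-handling genes and genes linked to MTF1 that passed the filter, with 1 colour for each time and filled symbols for genes that passed the test. Most filled symbols belong to 4 h, and the values lie between −2.06 for Selenoh and 2.73 for Slc39a14.

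Genes known to respond to glucocorticoids and to IL-6, both known inducers of Mt1 and Mt2, were followed as well. Of 10 glucocorticoid-responsive genes, 6 were higher at 15 min, 9 at 30 min and 7 at 4 h, where Sult1a1 was lower (−0.67, adjusted p = 0.0489). The counts were 5, 7 and 7 with library size alone. Of all genes tested, 4.18%, 4.58% and 32.8% passed in either direction at the 3 times in turn. The median log2 fold changes of the 10 genes were 1.05, 1.99 and 2.08. At 15 min the phosphatase gene Dusp1 (3.38), the transcription factor gene Zbtb16 (2.77) and the receptor cochaperone gene Fkbp5 (1.94) were highest, and they led again at 30 min with 3.65, 2.23 and 2.43. At 4 h Errfi1 (5.57), Pdk4 (3.33) and Fkbp5 (2.94) led.

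Of 10 genes responsive to IL-6 and STAT3, 2 were higher at 15 min, 6 at 30 min and all 10 at 4 h, with medians of 0.29, 1.32 and 4.32. At 15 min Junb (3.21) and Cebpd (1.61) passed, and Socs3 had a value of 0.77 (adjusted p = 0.0636). At 30 min the largest values were those of Junb (4.82), Cebpd (3.59) and Lrg1 (2.23). At 4 h they were those of Socs3, the feedback inhibitor of the pathway (6.48), Timp1 (6.0) and Cebpd (5.75). The list medians stand beside a median of all genes between −0.01 and 0.00, and the list counts beside 4.18%, 4.58% and 32.8% of all genes passing. The authors name Dusp1 and Junb among early response genes. Which signal raised the genes of either list was not tested.

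Markers of cell types also differed between groups. The summed level of 8 astrocyte markers was 834 to 861 CPM in PBS, 649 to 698 CPM at 15 min, 874 to 905 CPM at 30 min and 1497 to 1562 CPM at 4 h. Of the 8, Gja1 (2.81, SE 0.039), Aqp4 (2.49, SE 0.649, adjusted p = 0.00707) and Gfap (0.65, SE 0.038, adjusted p = 0.0499) passed as higher at 4 h. Slc1a3 (0.25), Slc1a2 (0.36), Aldh1l1 (0.00), S100b (0.37) and Aldoc (0.02) did not. Aqp4 was low and varied between libraries, with means of 2.91 CPM (SD 2.07) in PBS and 16.6 CPM (SD 10.3) at 4 h. With the replicate number added to the fit, 2 of the 8 were higher at 4 h. With library size alone Gfap was at −0.06. Choroid plexus markers summed to 17317 to 18210 CPM at 4 h, and neutrophil markers to 183 to 184 CPM against 4.20 to 5.0 CPM in PBS. Endothelial markers summed to 6097 to 6158 CPM at 4 h, below PBS, with 6 of the 8 called lower, among them Cldn5 (−2.31) and Slc2a1 (−1.05), while Cdh5 was higher (1.96, adjusted p = 2.86e-25) and Flt1 (−0.08) did not pass. Mural markers summed to 4826 to 4929 CPM, with 0 of the 8 called. Microglia markers went from 159 to 164 CPM in PBS to 97.2 to 103 CPM at 4 h, fibroblast markers from 505 to 536 CPM to 336 to 351 CPM, and neuron markers from 487 to 507 CPM to 427 to 435 CPM. Oligodendrocyte markers summed to 447 to 461 CPM in PBS and 508 to 523 CPM at 4 h. That sum rose with the abundant Mbp (183 to 264 CPM on average) and Mobp (57.9 to 91.0 CPM). Of the 8 oligodendrocyte markers, 0 were called higher and 3 lower (Mog, Mag and Cldn11), with a list median of −0.66. These sums depend on the scaling. With library size alone, 7 of 8 mural, 7 of 8 neuron and all 8 microglia markers were called lower at 4 h. Under it 8555 of all 19150 genes tested were lower, and the median of all genes was −0.71. Of the 4 choroid plexus markers, 0 were then called (median −0.01), against 2 higher with TMM factors. The part of these shifts in the levels of Mt1, Mt2, Mt3 and Mtf1 was not tested. Of the 8 neutrophil markers, 5 passed the filter and all 5 were called higher at 4 h, with log2 fold changes from 2.28 to 6.54. Ly6g, Mpo and Elane did not pass the filter and averaged 0.297, 0.0964 and 0.0514 CPM at 4 h.

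The genes whose course over the 12 libraries was closest to each of the 4 were found by the root mean square difference of log2 CPM after centring each gene, over 14585 genes. Closest to Mt1 were Tifa (0.195), an adaptor of NF-κB signalling, Tubb6 (0.222) and the noncoding Gm42031 (0.231). Closest to Mt2 were the noncoding AC160336.1 (0.193), the pseudogene Gm9973 (0.210) and Serpina3n (0.240), an acute-phase inhibitor of serine proteases. Mt1 was in place 24 for Mt2, and Mt2 in place 81 for Mt1, with a difference of 0.588. Closest to Mt3 were Plac9b (0.0949), Dbi (0.105) and Wdr78 (0.113), and closest to Mtf1 were Med13l (0.0657), Ubl3 (0.0704) and Id3 (0.0740). Small differences are common among genes that change little, so places are comparable only within a gene.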

How the data were processed

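RNA of cerebral vessels was measured in 12 libraries, and groups were taken from the sample records. The authors quantified transcripts with Salmon 1.2.1 on GRCm38.p6, and the deposited estimated counts are fragments per transcript, not normalized. The deposited TPM values are abundances per transcript length, brought to an equal total in each library by the authors. The deposited gene table is a normalized signal, counts divided by DESeq2 factors by the authors, and its columns were matched to samples through the sample numbers in their own files.

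Estimated counts were joined to GENCODE M21 (139852 of 140948 transcripts), summed to genes and rounded. The filter filterByExpr (minimum count 10) kept 19150 genes. edgeR 4.0.16 under R 4.3.3 fitted all 12 libraries by quasi-likelihood with TMM factors, and glmTreat tested for changes beyond 1.5-fold (log2 limit 0.58), and a gene was called where its p, adjusted after Benjamini and Hochberg for all genes, was below 0.05. SEs were derived from the F of the test with no fold limit, as the absolute log2 change divided by its square root. TMM factors were 1.16 to 1.17 in PBS and 0.715 to 0.718 at 4 h. The test was tried on counts simulated for 4 h against PBS alone, with the spread fitted to these libraries, and so this trial cannot check that spread. No replicate pair agreed within counting noise (variance 2.20 to 2.95 times it). That excess does not show how much of the spread came from the mice. The fitted coefficient of variation between libraries beyond counting was 0.0524 in common, 0.0339 for Mt1 and 0.0337 for Mt2.

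The 4 genes, the lists and the motifs were chosen with earlier results of these data known. Named genes are, from each metal-handling list, the 3 largest called changes at 4 h and any called earlier; from the glucocorticoid and IL-6 lists, the 3 largest at each time; genes within 250 kb of Mt1, of which 1 is not reported here; and the 3 nearest in course to each gene (mean count at least 50). Others named were chosen after their values were seen. Alternatives were DESeq2 1.42.0, RLE factors, library size only, no filter, no fold limit, a length offset, a block, only the groups compared, limma 3.58.1 on the gene table with 1 or 10 added, and leaving out each library.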

Additional observations from a re-analysis of the deposited data

Results flagged for a closer look

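Changes between successive times after LPS, tested directly in the fit over all genes with edgeR's quasi-likelihood test for a change beyond 1.5-fold and Benjamini-Hochberg adjustment, passed for 5 values. Between 15 and 30 min, Mt1 differed by 1.43 (adjusted p = 7.23e-16) and Mt2 by 1.92 (adjusted p = 7.83e-20) on the log2 scale, with each of the 3 later libraries above each of the 3 earlier. Between 30 min and 4 h, Mt1 differed by 3.90 (adjusted p = 1.26e-27), Mt2 by 4.72 (adjusted p = 3e-29) and Mtf1 by 0.98 (adjusted p = 2.52e-06), again without overlap. With library size alone the value of Mtf1 was 0.44 and did not pass (adjusted p = 1), and the other 4 passed.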

How the results depend on the processing

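Mt1 and Mt2 passed at 30 min and 4 h under all 10 alternatives and without any 1 library. Their 4 h values ranged from 4.78 to 5.48 and from 6.30 to 7.05, the lowest of each with library size only. With no fold limit 3 of the 4 genes passed at 15 min and 4 at 30 min. With library size only the median of all genes moved to −0.17 at 30 min and −0.71 at 4 h against PBS. Under it Mt3 at 4 h was −0.16 against PBS and −0.53 against 30 min, and Mtf1 at 30 min was −0.12 against 15 min. Mtf1 at 4 h was then 0.49 against PBS and 0.44 against 30 min, without passing. With no filter Mt3 at 4 h was −0.036 against 30 min. Leaving out 1 library at a time gave −0.177 to 0.0035 for Mt3 at 15 min (above 0 without PBS replicate 1), −0.059 to 0.065 for Mtf1 between 15 and 30 min (below 0 without replicate 2 of either group) and −0.055 to 0.080 for Mt3 between 30 min and 4 h (below 0 without replicate 1 of either group or replicate 3 at 4 h), and no call on the 4 genes changed. The cause of these shifts was not tested. The log2 ratio of Mt2 to Mt1 at 4 h exceeded that in PBS by 1.47 to 1.58 under all its alternatives.

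Calls over all genes at 4 h numbered 6273 (58.0% higher) and, with library size only, 10462 (18.2% higher). Against 30 min they numbered 5484 (58.9% higher) and 8848 (21.7% higher). With library size only the higher share at 30 min was 61.4% in place of 82.5% against PBS and 37.2% in place of 57.9% against 15 min. With no fold limit the calls were 7393, 7066 and 13124 at the 3 times, against 800, 877 and 6273, and 7153 and 12498 between successive times, against 891 and 5484. With limma on the gene table with 1 or 10 added they were 406 or 385 at 15 min, 531 or 497 at 30 min, and 443 or 413 between these. With no fold limit 6, 5 and 7 zinc exporters, 5, 7 and 11 zinc importers passed at the 3 times, and 4 and 5 copper-handling genes and 4 and 4 genes linked to MTF1 at the first pair of times, with 10 glucocorticoid and 7 IL-6 genes at 15 min. With library size only 0 genes linked to MTF1 passed at 30 min, and at 4 h 0 exporters were higher and 1 lower (Slc30a1, none of the 2 called before), 2 importers higher and 7 lower, 1 copper-handling gene higher and 6 lower, and 0 genes linked to MTF1 higher and 4 lower.

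Libraries with the same number in different groups did not deviate together (18 correlations from −0.19 to 0.13), so the numbers were not taken as a pairing. With the number as a block the log2 fold changes at 4 h were 5.48 for Mt1, 7.0 for Mt2, 0.55 for Mt3 and 1.2 for Mtf1, the ratio of Mt2 to Mt1 differed by 1.52 between 4 h and PBS, and 0, 2 and 3 of the 4 genes passed at the 3 times in turn. The block, added for the gene lists after the data were seen, moved no list count by over 1.5 times.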

Other observations

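The deposited normalized gene table gave the same order of groups for Mt1 and Mt2. Mt2 was at 1366, 1316 and 1474 normalized counts in PBS and at 181891, 187294 and 179728 normalized counts at 4 h. For Mt1, Mt2 and Mt3 the deposited values departed from the summed counts by at most 0.10, 0.08 and 0.09 on the log2 scale in any library, after removing the median over 16548 genes. For Mtf1 the largest departure was 0.31, and its deposited values were 451, 430 and 596 normalized counts in PBS against 1340, 1147 and 1158 normalized counts at 4 h, a wider spread than its CPM showed.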
